A study of Homo sapiens with 12 samples.

Results

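Glycolysis, gluconeogenesis and the handling of pyruvate were followed through 33 genes of the human proximal tubular cell (HPTC) arrays, from the hexokinases to lactate export, the enzymes that steer pyruvate into or away from the mitochondrion, and the enzymes that run the pathway backwards. The members were found by their gene name on the array, with PKM also sought under its older name, and each was read from its brightest probe. All 33 were on the array, and 26 of them entered the tests, out of 15717 genes tested in all. RNA came from cells labelled HK-2, a line of adult proximal tubular cells immortalized with viral oncogenes, and RPTEC/TERT1, proximal tubular epithelial cells immortalized with telomerase. Both were grown in medium of a normoglycemic kind (5.8 mM glucose for HK-2 and 5 mM for RPTEC/TERT1) and starved of serum and supplements for 24 h. They then received IL-1β (10 ng/mL), Empa (empagliflozin, an inhibitor of the sodium-glucose cotransporter SGLT2, 500 nM) or neither for another 24 h. Every treatment of a line was run in biological duplicate on one-color arrays, which gives 6 groups of 2 arrays, and no group received both agents. Each line is a single immortalized line, so the groups describe these cultures and not kidneys of different donors.

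Glycolysis splits glucose into pyruvate in the cytosol and yields ATP without oxygen. Hexokinase and phosphofructokinase commit glucose to the pathway, and pyruvate is then either reduced to lactate, exported by monocarboxylate transporters, or oxidized in mitochondria through the pyruvate dehydrogenase complex, which the PDK kinases switch off. The proximal tubule in the body is known as a site of gluconeogenesis that oxidizes fatty acids and uses little glucose, whereas cultured tubular cells commonly turn to glycolysis.

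Levels are log2 values of the background-subtracted signal, scaled to the 75th percentile of each array and given relative to it. Because a probe's brightness depends on its sequence, levels were compared only between arrays and not between genes. Each of the 4 slides carried 1 array per treatment, all of the same line label and replicate number, so every treated array was set against the control array of its own slide. Values of the 4 slides are always given in the order HK-2 replicate 1, HK-2 replicate 2, RPTEC/TERT1 replicate 1 and RPTEC/TERT1 replicate 2.

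The arrays went against their line labels. Over 15329 probes the control array of RPTEC/TERT1 replicate 2 correlated best with HK-2 replicate 1 (r = 0.984) and the control array of RPTEC/TERT1 replicate 1 best with HK-2 replicate 2 (r = 0.973), whereas the 2 control arrays labelled HK-2 correlated with 0.880 and the 2 labelled RPTEC/TERT1 with 0.875. Another label field names HK-2 for all 12 samples. The line labels are therefore kept as names and not read as lines. They still set the 6 groups of the probe filter, of the fit without a block and of the replicate block. A probe well above background only on 1 pair of slides with like arrays could thus not be tested. The treatment effect was also fitted across the 4 slides without the labels, on the genes that this filter kept. The array's 75th percentile lay between 297.7 and 765 signal units, 52.7% to 63.1% of probes were well above background, and 7 to 198 probes of an array were saturated. All 9 tested genes of the IL-1β response check were higher with IL-1β on 4 of 4 slides. Of these, 6 were well above background on all 12 arrays, among them IL6 and CXCL1, and CXCL8 was on 11. CCL2 and CCL20 were well above background on 8 arrays each, with 2 dim control arrays. Their IL-1β arrays could admit them to the tests, so their rise adds little to the check. Of 12 proximal tubule markers 6 were tested, while CUBN, SLC22A6, SLC13A3 and HNF4A were not well above background on both arrays of any group, and none of the 5 distal tubule and collecting duct markers was tested.

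After IL-1β, the hexokinase HK2, the regulator PFKFB4, the ATP-forming PGK1, the lactate exporter SLC16A3 and the kinase PDK1 were higher on every slide, by 1.93- to 2.78-fold on average, and the kinase PDK2 was lower. These 6 passed in a fit with a block and not in limma without one. In these bulk samples fewer cells with a transcript and less of it per cell cannot be told apart. Of the 26 tested members, 12 were higher on 4 of 4 slides and 3 were lower on 4 of 4 slides, where 15.0% of all genes tested were higher on every slide and 24.9% lower. These shares were 46.2% and 11.5% of the members. The median of the members' mean differences was 0.51, against a median of -0.11 over all genes. By slide the members' median was 0.64, 0.15, 0.46 and 0.79. In limma without a block no member passed an adjusted p of 0.05, with 3 members at an unadjusted p under 0.05 and 0.0509% of all genes called. With the replicate number as a block 5 members passed, 4 of them higher (2.02% of all genes were called higher and 3.47% lower). With the slide as block and 1 effect per treatment 6 members passed, 5 of them higher (4.52% of all genes called higher and 7.91% lower). No member passed for IL-1β in the arrays of either line label alone, with lowest adjusted p of 0.0890 for HK-2 and 0.117 for RPTEC/TERT1 in limma with the replicate block, where 7 and 8 members were at an unadjusted p under 0.05 and 0.255% and 0.261% of all genes were called. No difference of the IL-1β effect between the line labels passed, and none had an unadjusted p under 0.05, in limma with or without the block. Each label joins slides whose control arrays correlated less with each other than across the labels. This comparison therefore cannot show whether the lines respond alike.

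**Figure D1:**
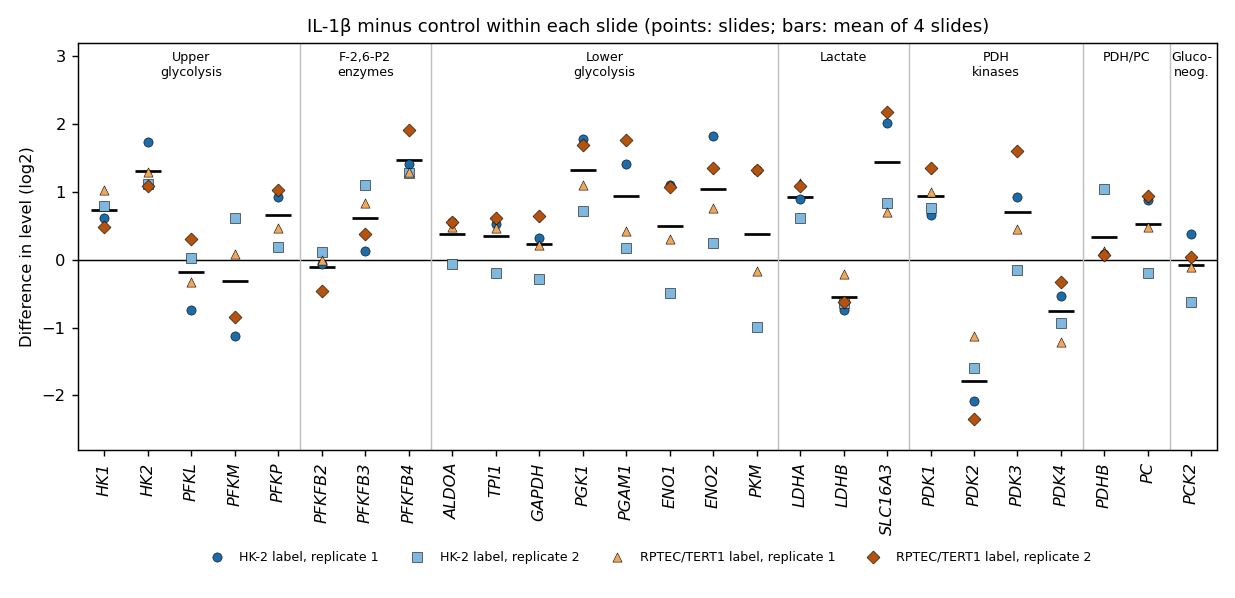
Difference in level between the IL-1β and the control array of each slide (vertical axis, log2) for the 26 tested members (horizontal axis), grouped by role; each symbol is 1 slide and each bar the mean of 4 slides. HK2, PFKFB4, PGK1, LDHA, SLC16A3 and PDK1 lie above 0 on all 4 slides and PDK2, PDK4 and LDHB below 0, while PKM ranges from -0.99 to 1.33.

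Hexokinases phosphorylate glucose and so trap it in the cell. HK2, the inducible hexokinase (its probe lies at chr2:75120331-75120390 in hg19, and the gene is not to be confused with the HK-2 line), was at -1.0, 0.38, 0.64 and -0.91 on the 4 control arrays. On the IL-1β arrays it was at 0.73, 1.49, 1.94 and 0.18. Within each slide the IL-1β array was the higher one, by 1.74, 1.11, 1.30 and 1.09, a mean of 1.31 ± 0.30 (SD, n = 4 slides) or 2.48-fold, with a limma adjusted p of 0.0278 with the replicate block and 0.00562 with the slide block. The levels of the groups overlapped, because the control arrays themselves spread over more than 1 log2 unit. HK1, the constitutive isoenzyme, was higher by 0.62, 0.79, 1.03 and 0.48 and did not pass (limma adjusted p of 0.130 with the replicate block and 0.0592 with the slide block). HK3 was not well above background on any array.

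Phosphofructokinase carries out the committing step, and its platelet form PFKP was higher on 4 of 4 slides, by 0.93, 0.19, 0.47 and 1.03 (limma adjusted p of 0.117 with the replicate block and 0.0513 with the slide block). The muscle form PFKM moved by -1.12, 0.62, 0.08 and -0.84 and the liver form PFKL by -0.74, 0.03, -0.33 and 0.31, so neither kept 1 direction. The bifunctional PFKFB enzymes set the level of the activator of phosphofructokinase. PFKFB4 (chr3:48555454-48555513) was at -1.40, -0.76, -0.05 and -2.13 on the control arrays and at 0.02, 0.52, 1.25 and -0.22 on the IL-1β arrays. It rose on every slide, by 1.42, 1.28, 1.30 and 1.91, a mean of 1.48 ± 0.29 (SD, n = 4 slides) or 2.78-fold, with a limma adjusted p of 0.0394 with the replicate block and 0.00987 with the slide block. PFKFB3, the form with the strongest kinase activity, was at 4.23, 1.53, 2.35 and 3.46 on the control arrays and higher with IL-1β by 0.13, 1.11, 0.84 and 0.39, which did not pass (limma adjusted p of 0.160 with the replicate block and 0.0769 with the slide block). Its dimmer probe was higher on 3 of 4 slides, with a mean of 0.23. PFKFB2 differed by -0.06, 0.12, 0.00 and -0.46.

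In lower glycolysis 1 of the 8 tested enzymes passed, PGK1, which makes the first ATP of the pathway. PGK1 (chrX:77381462-77381521) was at 3.75, 4.73, 4.70 and 3.88 on the control arrays and at 5.53, 5.44, 5.8 and 5.56 on the IL-1β arrays, so that all 4 IL-1β arrays lay above all 4 control arrays. It rose by 1.78, 0.71, 1.10 and 1.68, a mean of 1.32 ± 0.50 (SD, n = 4 slides) or 2.49-fold, with a limma adjusted p of 0.0386 with the replicate block and 0.00939 with the slide block. PGAM1, the mutase of the next step, was higher by 1.41, 0.18, 0.42 and 1.77, with its other probe at 1.37, 0.27, 0.54 and 1.29. The enolase isoform ENO2 was higher by 1.83, 0.25, 0.76 and 1.36, and neither passed (lowest limma adjusted p of 0.0574 and 0.208 with the slide block). ALDOA, TPI1, GAPDH, ENO1 and PKM, which encode the bulk enzymes of this stretch, were higher on the slides of RPTEC/TERT1 replicate 2 and HK-2 replicate 1 and lower on the slide of HK-2 replicate 2. PKM, the last step to pyruvate, showed it most, with 1.32, -0.99, -0.16 and 1.33. GAPDH differed by 0.33, -0.28, 0.22 and 0.64.

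The slide of HK-2 replicate 2 held the arrays with the most saturated probes (198 on its IL-1β array), and the brightest genes as a whole were low on it. Among 247 genes with a mean level from 6 to 9, where GAPDH lies, the median IL-1β difference was -0.70 on this slide, against -0.24, -0.14 and -0.08 on the others. After quantile normalization it was -0.07 on this slide. Among 526 genes from 4 to 6, where ALDOA, TPI1, ENO1 and PKM lie, it was -0.16, against -0.12, -0.09 and 0.16 on the others. After quantile normalization PKM stayed at -0.96 and ENO1 at -0.47 on this slide, with ALDOA at -0.09 and TPI1 at -0.03. GAPDH had 4 of 10 spots saturated on that IL-1β array and on no other array. Its difference on this slide turned from -0.28 to 0.46 after quantile normalization. The part of saturation in the differences of the bright members was not tested.

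**Figure D2:**
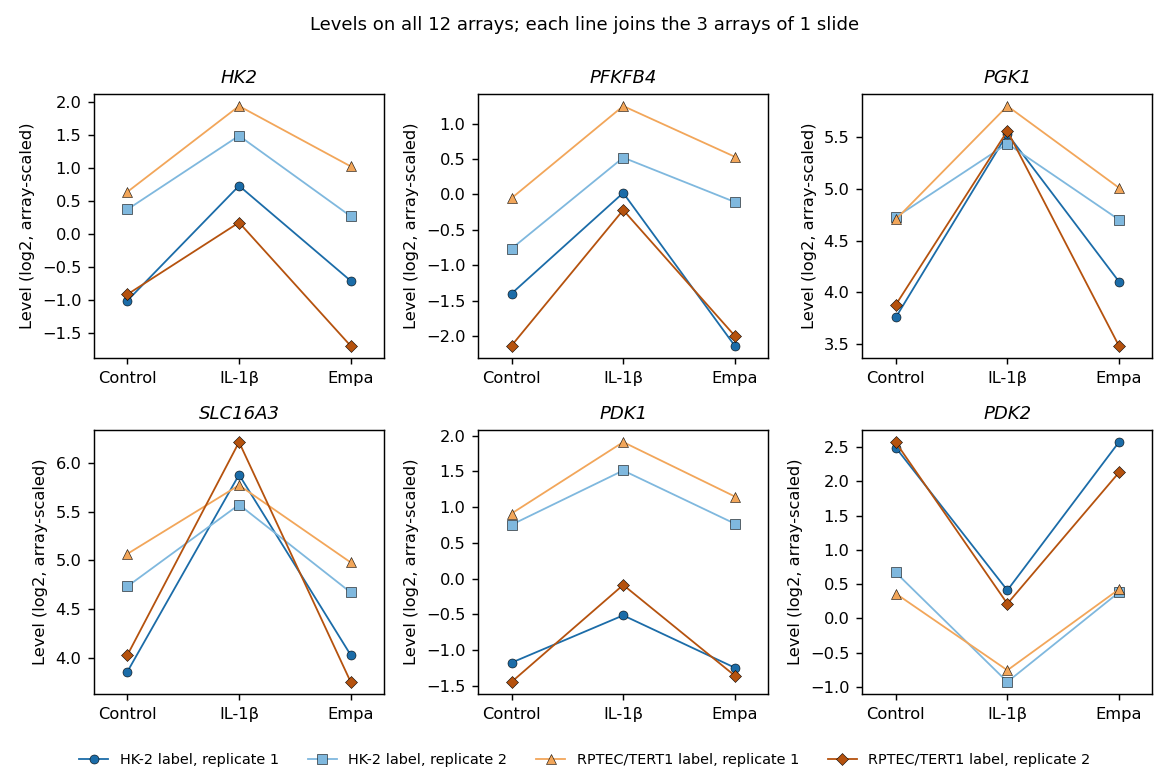
Levels (vertical axis, log2, relative to the 75th percentile of the array) of the 6 members that passed in a fit with a block, on the control, IL-1β and Empa arrays; each line joins the 3 arrays of 1 slide. On every slide HK2, PFKFB4, PGK1, SLC16A3 and PDK1 peak on the IL-1β array and PDK2 is lowest there, and the levels of a treatment differ between slides.

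Lactate dehydrogenase is built from LDHA, the muscle type that favours lactate formation, and LDHB, the heart type. LDHA was at 5.27, 4.71, 4.77 and 5.16 on the control arrays and at 6.17, 5.32, 5.91 and 6.24 on the IL-1β arrays. It was higher on 4 of 4 slides, by 0.90, 0.61, 1.14 and 1.09, a mean of 0.93 ± 0.24 (SD, n = 4 slides) or 1.91-fold, but did not pass (limma adjusted p of 0.223 with the replicate block and 0.153 with the slide block). It passed with the slide block once the Empa array of HK-2 replicate 1 was left out. LDHB was lower (differences of -0.75, -0.63, -0.22 and -0.62), and did not pass either (limma adjusted p of 0.148 with the replicate block and 0.0665 with the slide block). After quantile normalization LDHB differed by -0.60, 0.04, -0.08 and -0.55, so its fall on every slide depended on the scaling. The brightest LDHB probe was saturated on 5 of 12 arrays, among them the control array of HK-2 replicate 1 and the IL-1β array of HK-2 replicate 2, so its differences on these 2 slides are not exact, and its unsaturated probe was lower too (differences of -1.10, -0.61, -0.29 and -1.23, limma adjusted p of 0.0932 with the slide block). SLC16A3, the lactate exporter MCT4 (chr17:80197288-80197347), was at 3.86, 4.73, 5.07 and 4.03 on the control arrays and at 5.88, 5.57, 5.77 and 6.21 on the IL-1β arrays, and these groups did not overlap. It was higher by 2.02, 0.84, 0.70 and 2.18, a mean of 1.44 ± 0.77 (SD, n = 4 slides) or 2.71-fold. It passed with the slide block and not with the replicate block (limma adjusted p of 0.0143 and 0.0518).

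The pyruvate dehydrogenase kinases moved in opposite directions. PDK2 (chr17:48188262-48188321), the broadly expressed kinase, had the largest mean IL-1β difference in size among the tested members. It was at 2.49, 0.67, 0.36 and 2.57 on the control arrays and at 0.41, -0.93, -0.76 and 0.21 on the IL-1β arrays. It fell on every slide (differences of -2.08, -1.60, -1.12 and -2.35), a mean of -1.79 ± 0.54 (SD, n = 4 slides) or 0.290-fold, with a limma adjusted p of 0.0135 with the replicate block and 0.00179 with the slide block. PDK1 (chr2:173463273-173463332), a kinase known as a target of the hypoxia-inducible factor, was at -1.18, 0.75, 0.91 and -1.45 on the control arrays and at -0.52, 1.51, 1.91 and -0.09 on the IL-1β arrays. It rose by 0.66, 0.76, 1.00 and 1.36, a mean of 0.95 ± 0.31 (SD, n = 4 slides) or 1.93-fold, with a limma adjusted p of 0.0273 with the replicate block and 0.00697 with the slide block. The difference of PDK1 exceeded that of PDK2 by 2.74, 2.36, 2.12 and 3.71 within the slides, which compares their changes and not their levels. PDK4, the kinase known to respond to fasting, was lower (differences of -0.53, -0.94, -1.21 and -0.33), and PDK3 moved by 0.93, -0.15, 0.46 and 1.60, neither of which passed (lowest limma adjusted p of 0.141 and 0.330 with the slide block).

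Of the enzymes that use pyruvate in the mitochondrion, PDHB, a subunit of pyruvate dehydrogenase, differed by 0.09, 1.04, 0.13 and 0.07, with the HK-2 replicate 2 slide apart from the rest. Pyruvate carboxylase (PC), the first step of gluconeogenesis, was at -0.60, -0.29, -0.83 and -0.46 on the control arrays and differed by 0.89, -0.19, 0.49 and 0.94 (limma adjusted p of 0.218 with the replicate block and 0.127 with the slide block). The gluconeogenic enzymes proper gave little to measure. PCK1, FBP1 and G6PC, which carry the pathway in the tubule and the liver, were not well above background on any of the 12 arrays, and neither an IL-1β nor an Empa difference can be given for them. PCK2, the mitochondrial carboxykinase, was measured on all 12 arrays and differed by 0.38, -0.62, -0.10 and 0.04 (limma adjusted p of 0.881 with the replicate block and 0.862 with the slide block).

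Besides these 3 and HK3, ALDOC was well above background on only 2 arrays and was not tested. GPI had no value because the software marked its probe as an outlier on 10 arrays. The bright probe of PDHA1 was marked on 1 array, and its other probe, which had a value on all arrays, was well above background on 1 array only, so that PDHA1 was not tested. With outlier spots kept, GPI differed by -0.00, 0.18, 0.24 and -0.37 after IL-1β, and the bright probe of PDHA1 by -0.36, 0.32, -0.10 and -0.29.

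The number of calls leaned on single arrays, among the members and over all genes. In the full fit with the slide block 1955 of 15717 genes were called for IL-1β. Without the Empa array of HK-2 replicate 1, 12 members passed (9 higher and 3 lower), adding HK1, PFKP, ENO2, LDHA, LDHB and PDK4. Over all genes 2963 were then called (1071 higher and 1892 lower). Without the IL-1β array of HK-2 replicate 2, 9 members passed, adding PFKP, PGAM1 and PC, and 1831 genes were called. Without the whole slide of RPTEC/TERT1 replicate 2, 2 members passed, HK2 and PDK2, and 445 genes were called. These 2 members passed with the slide block whichever array or slide was left out.

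Promoter windows are shown for the 4 members that rose with the replicate block, since they moved together. Each window holds the 250 bases before the most upstream start listed by RefSeq (GRCh38.p14), read 5′ to 3′ on the strand of the gene. Capitals mark ACGTG on either strand, 1 form of the core that the hypoxia-inducible factor binds. The other form, GCGTG, was counted on both strands too and is not marked.
HK2, chr2:74833877-74834126 (+ strand): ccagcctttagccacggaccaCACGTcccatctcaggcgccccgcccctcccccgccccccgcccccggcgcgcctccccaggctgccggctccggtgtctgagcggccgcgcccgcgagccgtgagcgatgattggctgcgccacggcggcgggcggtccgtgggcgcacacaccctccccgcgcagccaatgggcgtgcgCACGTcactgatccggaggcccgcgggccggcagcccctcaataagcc
PFKFB4, chr3:48556804-48557053 (- strand): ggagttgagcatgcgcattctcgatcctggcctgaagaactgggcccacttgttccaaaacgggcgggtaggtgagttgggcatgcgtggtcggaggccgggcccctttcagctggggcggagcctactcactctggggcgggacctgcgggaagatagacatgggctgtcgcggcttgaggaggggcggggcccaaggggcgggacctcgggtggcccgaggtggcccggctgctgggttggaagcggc
PGK1, chrX:78103998-78104247 (+ strand): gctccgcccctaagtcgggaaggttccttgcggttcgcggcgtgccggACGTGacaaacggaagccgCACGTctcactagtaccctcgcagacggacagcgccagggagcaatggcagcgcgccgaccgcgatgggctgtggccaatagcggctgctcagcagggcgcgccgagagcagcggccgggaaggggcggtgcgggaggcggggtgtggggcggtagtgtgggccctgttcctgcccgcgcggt
PDK1, chr2:172555123-172555372 (+ strand): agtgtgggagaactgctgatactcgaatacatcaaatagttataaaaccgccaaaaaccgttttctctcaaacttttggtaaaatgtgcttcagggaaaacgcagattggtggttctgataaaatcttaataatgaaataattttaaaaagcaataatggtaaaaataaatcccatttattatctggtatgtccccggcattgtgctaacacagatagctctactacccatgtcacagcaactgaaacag
HK2 and PGK1 each held 2 matches to ACGTG there, PFKFB4 and PDK1 none, and the other listed start of PDK1 had 2. GCGTG occurred in these windows 1 time each for HK2, PFKFB4 and PGK1 and not for PDK1. RefSeq windows were found for 31 of the 33 members. Over their 61 windows 36.1% held ACGTG, against 18.5% of all 35116 windows, and 31.1% held GCGTG, against 32.2%. CACGTG, the E-box, which contains ACGTG on both strands, was in 13.1% against 6.34%. The consensus of NF-κB was in 16.4% against 9.96%. By window, ACGTG was in 34.5% of the 29 windows of members higher on 4 of 4 slides, in 20% of the 5 of members lower on 4 of 4 and in 38.1% of the 21 of the other tested members. By gene, counting any window, it was in 9 of 12, 1 of 3 and 6 of 10 members. The order of the groups thus depended on the unit counted, and genes with several listed starts weigh more by window. By gene ACGTG was in 61.3% of the 31 members, against 21.7% of all 27305 genes. Counted so, a gene with more windows has more chances of a match. PDK2, which fell, had 2 matches to ACGTG in 1 of its 3 windows.

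Empa changed no member past the threshold. In limma without a block, with the replicate block and with the slide block 0 of 26 members passed for both lines together. Unadjusted, 0, 0 and 2 members had a p under 0.05, and 0%, 0% and 0.00636% of all genes were called. The lowest adjusted p of a member was 0.404, and no member passed in the arrays of either line label or for the difference between them (lowest adjusted p 0.530 in limma with the replicate block). As for IL-1β, the difference between the labels cannot show whether the lines respond alike. On the slides, 0 members were higher on 4 of 4 and 7 were lower on 4 of 4 (26.9%), against 12.5% and 13.9% of all genes. After quantile normalization 2 were higher and 4 lower, so this split depended on the scaling. The members' median difference was -0.18, against -0.02 over all genes.

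The 5 members with the largest Empa differences of 1 direction were PKM, PCK2, ALDOA, PFKFB2 and PFKL. PKM was at 3.21, 4.74, 5.24 and 4.22 on the Empa arrays and lower (differences of -1.79, -0.81, -0.13 and -0.51), a mean of -0.81 ± 0.71 (SD, n = 4 slides) or 0.571-fold. PCK2 was lower (differences of -0.93, -0.66, -0.11 and -0.41), a mean of -0.53 ± 0.35 (SD, n = 4 slides). ALDOA, the aldolase of muscle and most other tissues, was lower (differences of -0.76, -0.48, -0.04 and -0.41). Their limma adjusted p with the slide block were 0.517, 0.404 and 0.415, so none of the 3 passed. PFKFB2 differed by -0.07, -0.31, -0.92 and -0.22 and PFKL by -0.33, -0.15, -0.75 and -0.11, and on both the slide of RPTEC/TERT1 replicate 1 differed most. After quantile normalization ALDOA was lower on 3 of 4 slides, and the other 4 on 4 of 4.

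**Figure D3:**
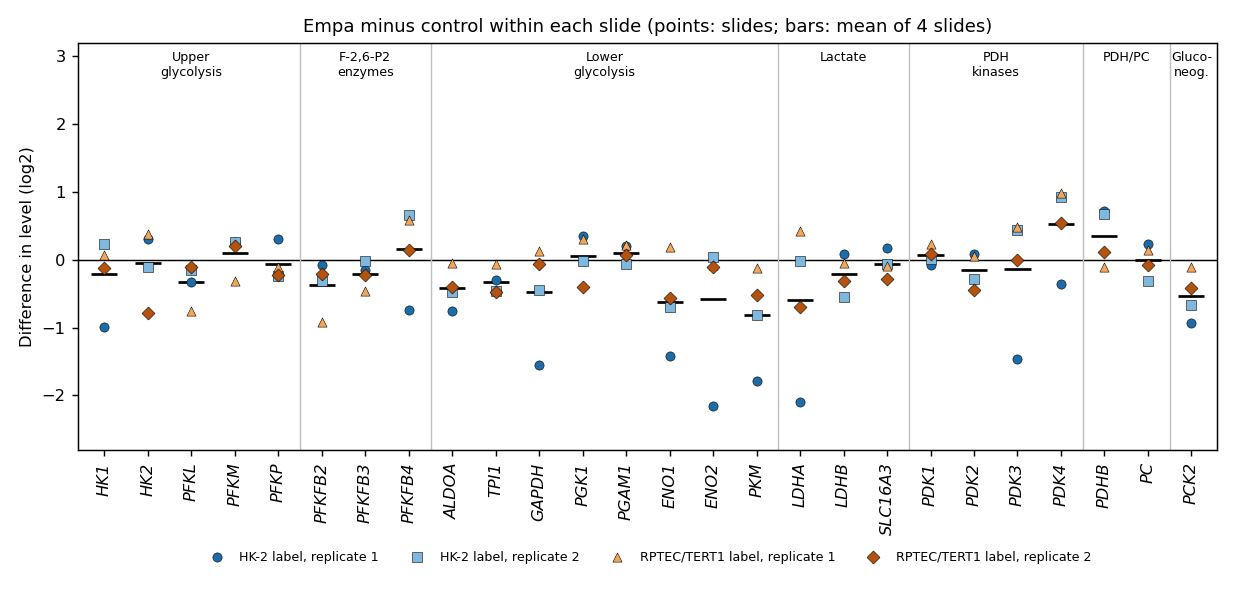
Difference in level between the Empa and the control array of each slide (vertical axis, log2) for the 26 tested members (horizontal axis), grouped by role; each symbol is 1 slide and each bar the mean of 4 slides. On the HK-2 replicate 1 slide LDHA, ENO2, PKM, GAPDH, ENO1 and PDK3 lie between -2.15 and -1.41, while on the other slides most members lie near 0.

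A single array held most of the largest Empa differences, while the members' median was also below 0 without it. The Empa array of HK-2 replicate 1 was lower than its control by over 0.9 for 8 members, and on the other 3 slides together this held for 1 member. LDHA differed by -2.10, -0.02, 0.42 and -0.69, ENO2 by -2.15, 0.04, -0.08 and -0.10 and GAPDH by -1.55, -0.44, 0.12 and -0.07. ENO1 differed by -1.41, -0.70, 0.19 and -0.56 and PDK3 by -1.46, 0.44, 0.48 and -0.00. On that array the median difference was 0.14 among 526 genes with a mean level from 4 to 6, where LDHA and ENO1 lie. It was 0.16 among the 247 brighter ones, where GAPDH lies. Among 8183 genes with a mean level from -2 to 2, where ENO2 lies, it was 0.12. PDK3 was dimmer than all of these, and the cause of the low values was not tested. PGK1, PFKP and HK2, on the same array, were higher than their control by 0.35, 0.30 and 0.30. PDK3 was not well above background on that array, so the exact size of its difference there is not known. Over the 3 other slides the members' median Empa difference was -0.13, against -0.05 over all genes. With all 4 slides it was -0.18. On all 3 other slides 10 of 26 members were lower, as were 23.7% of all genes, and 3 members were higher. The share of all genes higher on those 3 slides was not counted.

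None of the 6 members called for IL-1β passed for Empa. HK2 differed by 0.30, -0.10, 0.39 and -0.78, PFKFB4 by -0.74, 0.66, 0.58 and 0.14 and PGK1 by 0.35, -0.02, 0.31 and -0.40. SLC16A3 differed by 0.17, -0.06, -0.09 and -0.28, PDK1 by -0.07, 0.01, 0.24 and 0.09 and PDK2 by 0.08, -0.29, 0.06 and -0.44. None of these kept 1 direction over the 4 slides. PDK4 was at -0.93, -2.23, -2.07 and -0.39 on the Empa arrays and higher on 3 of 4 slides, with differences of -0.36, 0.93, 0.98 and 0.53 (limma adjusted p of 0.630 with the replicate block and 0.497 with the slide block). PFKFB3 was lower (differences of -0.15, -0.02, -0.46 and -0.23), and PC differed by 0.23, -0.32, 0.14 and -0.08. The IL-1β and the Empa differences share their control arrays.

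**Figure D4:**
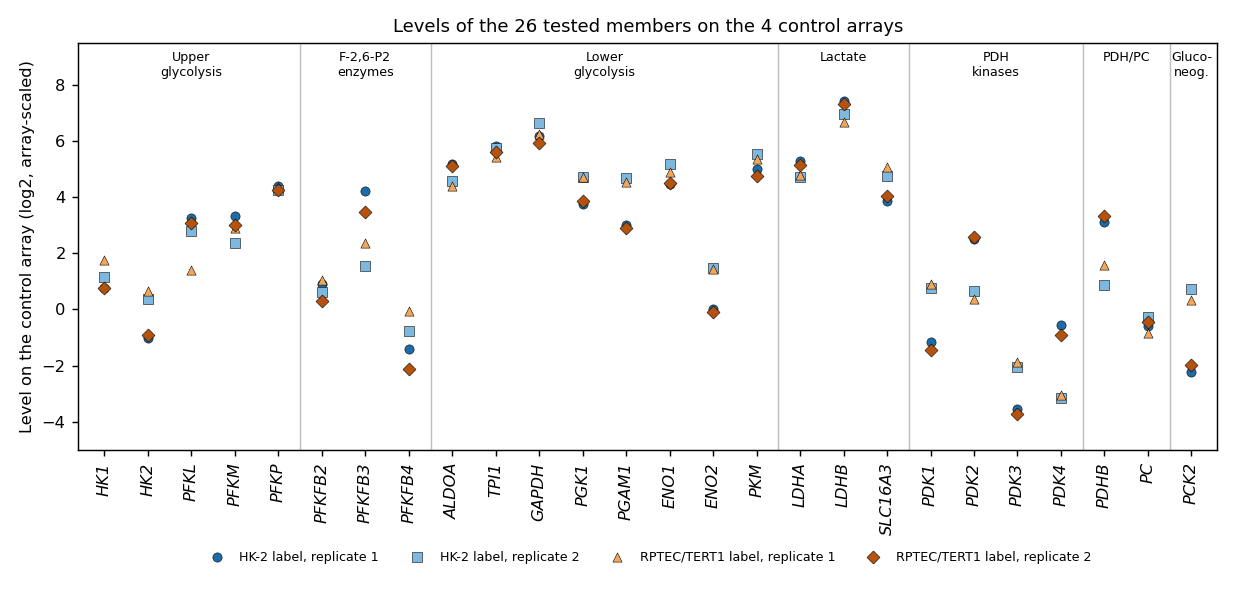
Levels of the 26 tested members (horizontal axis, grouped by role) on the 4 control arrays (vertical axis, log2, relative to the 75th percentile of the array); each symbol is 1 array. Levels are comparable between arrays and not between members, and for PDK2, PDK4, PDHB and PCK2 the arrays of RPTEC/TERT1 replicate 2 and HK-2 replicate 1 lie together, apart from the other two.

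Without any ligand the levels of many members differed between slides. The range over the 4 control arrays was over 1 log2 unit for 13 of 26 members and over 2 for 7, with a median of 1.10 and a maximum of 2.96. PCK2 was at -2.22, 0.74, 0.34 and -1.99, PDK4 at -0.57, -3.16, -3.05 and -0.92 and PDHB at 3.11, 0.86, 1.56 and 3.33. The median size of the difference between the 2 control arrays of a label was 0.80 for HK-2 and 1.02 for RPTEC/TERT1. It was 0.17 for RPTEC/TERT1 replicate 2 against HK-2 replicate 1, and 0.29 for RPTEC/TERT1 replicate 1 against HK-2 replicate 2. PFKP kept nearly the same level on all 4, from 4.24 to 4.40, and TPI1, PC and GAPDH spanned 0.38, 0.54 and 0.73. No test of the lines was made, since the labels and the arrays part ways.

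Neighbouring genes of the pathway were read from lists of the same kind. For the counts here and below, 4.52% of all genes were called higher and 7.91% lower for IL-1β with the slide block. Single calls in lists this short therefore say little about a list as a whole. Of 9 tested further glycolysis genes 1 passed for IL-1β with the slide block, BPGM, the mutase of the red cell's shunt, with 1.67, 1.23, 0.72 and 1.67 (limma adjusted p of 0.0515 with the replicate block and 0.0142 with the slide block). Of 12 further genes of pyruvate transport and gluconeogenesis 1 rose and 1 fell with the slide block. SLC16A1, the lactate carrier MCT1, rose by 1.55, 1.72, 1.04 and 1.47 (limma adjusted p of 0.0114 with the replicate block and 0.00188 with the slide block). MPC2, a subunit of the mitochondrial pyruvate carrier, was lower (differences of -1.94, -0.48, -0.78 and -1.93, limma adjusted p of 0.0700 with the replicate block and 0.0226 with the slide block). No gene of the pentose phosphate pathway passed out of 6 tested. Among 12 tested genes of glycogen and sugar interconversion, GBE1, the glycogen branching enzyme, rose by 1.47, 0.84, 0.58 and 1.04, PYGB, a glycogen phosphorylase, fell (differences of -0.85, -1.0, -0.51 and -1.13), and AKR1B1, aldose reductase, was higher by 2.58, 0.51, 0.63 and 2.66. Their limma adjusted p with the slide block were 0.0146, 0.0104 and 0.0400, and the first 2 also passed with the replicate block. Of 3 tested glucose transporters SLC2A1, the basal glucose carrier GLUT1, passed with the slide block, with 0.41, 0.88, 0.83 and 0.78.

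Of 7 tested targets of the hypoxia-inducible factor outside the pathway 4 were higher on 4 of 4 slides and 2 passed with the slide block. Of all genes 15.0% were higher on every slide, and 4.52% were called higher with the slide block. ANKRD37 rose by 1.28, 1.11, 0.67 and 1.80 (limma adjusted p of 0.0333 with the replicate block and 0.00695 with the slide block), and P4HA1, a collagen prolyl hydroxylase subunit, was higher by 0.29, 0.93, 0.61 and 0.74. VEGFA and ADM, which are also targets, did not keep 1 direction, with -0.63, 0.62, 0.72 and -0.75 for VEGFA. Of 6 tested regulators 1 rose and 3 fell with the slide block. MLXIPL, the glucose-responsive factor ChREBP, fell (limma adjusted p of 0.00667 with the replicate block and 5.3e-04 with the slide block). MLXIPL was well above background on 4 of 4 control arrays, at -3.52 to -1.83, and on 1 of 4 IL-1β arrays, so the exact size of its fall is not known. It entered the tests only through its control and Empa arrays, where it was high, which favours a call of a fall. PPARGC1A, a coactivator of oxidative metabolism and gluconeogenesis, fell (differences of -1.33, -2.03, -1.66 and -1.23, limma adjusted p of 0.0120 with the replicate block and 0.00175 with the slide block). TXNIP, which restrains glucose uptake, was lower (differences of -5.15, -1.27, -1.30 and -4.21) and MYC higher by 1.27, 0.66, 0.24 and 1.56, both past the threshold with the slide block only. HIF1A itself differed by 0.93, 0.27, -0.36 and 0.92. No gene of these lists passed for Empa with the slide block.

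Markers moved with IL-1β too. Of 6 tested proximal tubule markers LRP2 fell, with differences of -2.37, -2.70, -2.64 and -2.04. GGT1 was lower on every slide and did not pass (limma adjusted p of 0.0869 with the slide block). AQP1, SLC22A8 and PAX8 did not keep 1 direction, with 1.22, -0.34, -0.13 and 1.06 for PAX8. SLC34A1 was lower on 4 of 4 slides but well above background on 2 of 4 control and 1 of 4 IL-1β arrays. It entered the tests only through those 2 control arrays, both labelled HK-2, so neither its size nor its p-value is given. EPCAM, of 3 epithelial markers tested, fell with -1.24, -0.62, -0.92 and -1.13. KRT8 and KRT18 did not keep 1 direction, with -0.34, -0.84, -0.38 and 0.03 for KRT8 and 0.31, -0.17, 0.15 and 0.35 for KRT18. The limma adjusted p with the slide block of LRP2 and EPCAM were 1.1e-04 and 0.0188. No tested fibroblast, endothelial or leukocyte marker passed with the slide block. Whether changes in the state of the cells had a part in the differences of the glycolytic genes was not tested.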

How the data were processed

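The submitters' titles gave line, treatment and replicate number of the 12 arrays. The authors scanned Agilent 4x44K arrays and deposited the output of Feature Extraction 9.5.3.1, in which the intensities are background-subtracted and not normalized between arrays, per the file headers. They also deposited a log2 table of 44473 entries, whose arrays share their distribution only within a slide. Marks of the software gave outlier, saturated and well-above-background spots, and positions are those of its hg19 annotation.

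Signals were averaged over spots without outliers (1.06% to 1.61% of spots), scaled to the 75th percentile of the array, raised to at least 1 signal unit at a common percentile of 419 and converted to log2. At or below 0 had been 11.5% to 16.2% of an array's spots. A probe was kept if both arrays of some group marked it as well above background, and the brightest probe per gene was kept. limma 3.58.1 (R 4.3.3) was fitted to 6 groups without a block, leaving 6 residual degrees of freedom, and p-values were adjusted after Benjamini and Hochberg over 15717 genes, with a threshold of 0.05. Within a slide the arrays deviated together from their group means (r of 0.592 to 0.906). With 2 arrays per group, both slides of a label give the same r. Each label also joins slides with unlike arrays, so this r cannot tell a pairing by replicate number from the mismatch of the labels. Fits with the replicate number as a block within each line (4 degrees of freedom) and with the slide as block and 1 effect per treatment (6 degrees of freedom) stand beside the fit without a block. In a balanced design the mean differences are the same in these fits and only the error differs. On simulated data of 15717 genes with 200 changed by IL-1β, the fit without a block recovered 0% of changes of 1 and 0% of changes of 2 log2 units, the replicate block 25% and 96% with 11 false calls, and the slide block 35% and 98% with 8 false calls. The simulated data were drawn from the fit with the slide as block, with the same change on every slide. They favour the fits with a block by their setup and cannot show whether the calls in the real data hold.

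Named were members past the threshold in any of these fits, the 5 per treatment with the largest mean difference of 1 direction on the 4 slides and a signal well above background on all arrays, and a list of members fixed by name, as well as genes of neighbouring lists past the threshold. Other members were given to account for all of them. The members and lists were chosen with earlier results of these data known. Alternatives were the blocks, the scan as block, other normalizations, the authors' table, filters, probe choices, a floor of 5 signal units, outlier spots kept and arrays left out. Combinations of a block with another choice, and slides left out, were added after seeing the data. The number of arrays limits the precision. Figures were drawn with matplotlib 3.10.9.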

Additional observations from a re-analysis of the deposited data

Results flagged for a closer look

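Among the within-slide differences of the 26 tested members, 52 sets of 4 values in all, 4 had 1 slide far from the other 3, by the gap to the nearest value relative to the whole range, against Dixon's critical value. Chance flags about 1 in 20 such sets. After Empa, ENO2 was at -2.15 on the slide of HK-2 replicate 1, with -0.10 as the next value, and PFKM was at -0.31 on the slide of RPTEC/TERT1 replicate 1, with 0.21 as the next value. After IL-1β, PDHB was at 1.04 on the slide of HK-2 replicate 2, with 0.13 next, and ALDOA at -0.066 on that slide, with 0.48 next. No member's treatment effect differed between the line labels past the threshold, a comparison that cannot separate the lines because the arrays went against their labels.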

How the results depend on the processing

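In limma without a block, 0 members passed for either treatment under every normalization, filter, probe choice and floor tried, with the scan as a block and with each array left out (0 to 0), and the same holds for each line label and for the difference between the labels. The methods' t-test, run on each line label, called 0 after Benjamini-Hochberg adjustment and, unadjusted at the methods' threshold, 0 and 1 members for IL-1β (HK-2 and RPTEC/TERT1) and 0 and 0 for Empa. For IL-1β the number of members called was 5 with the replicate block and 6 with the replicate block with 1 effect per treatment. With the replicate block it was 5 after quantile normalization, after normexp and quantile normalization, in the authors' table, with the brightest unsaturated probe, with the mean of all probes and with outlier spots kept, 6 with a floor of 5 signal units and with probes well above background on all 12 arrays, and 1 (PDK1) without the filter on dim probes. With 1 effect per treatment it was 6, 8, 7, 6, 8 and 7 in that order, 7 with the floor of 5, 9 with the stricter filter and 6 without a filter. It was 5 to 12 with an array left out, 12 without the Empa array of HK-2 replicate 1, and 5, 6, 6 and 2 without each slide in turn. Over all genes the calls in these fits ran from 790 to 2963 with an array left out. They were 1084, 890, 1140 and 445 without each slide in turn, against 1955 in the full fit. For Empa 0 members passed under each of these settings.

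The members higher on 4 of 4 slides after IL-1β numbered 10 to 13 over the alternatives. For Empa they numbered 2 after quantile normalization, 2 after normexp and 1 in the authors' table, and those lower 4, 4 and 4, or 3 with each difference over 0.1. Of the members lower on 4 of 4 slides after IL-1β, LDHB was lower on 3 of 4 after quantile normalization. The members' median kept its sign for both treatments, also within each scan. Among named members, HK2, PFKFB4, PGK1, SLC16A3, PDK1 and PDK2 kept their direction throughout. With a block their values stayed within 1.5 times. Without a block and with 1 array left out, PDK1 ran from 0.36 to 1.54, each of the 8 control and IL-1β arrays moving it by over 1.5 times, HK2 from 0.87 to 1.75 (lowest without the IL-1β array of RPTEC/TERT1 replicate 1), PFKFB4 from 0.96 to 2.00 (lowest without the control array of RPTEC/TERT1 replicate 2), PGK1 from 1.08 to 1.56, SLC16A3 from 1.18 to 1.70 and PDK2 from -2.34 to -1.24. With 1 array left out and no block, several values that did not pass changed sign, the slides differing in level. After IL-1β, PFKFB3 ran from -0.057 to 1.29, PKM from -0.065 to 0.82 (-0.10 with the replicate block), PDK4 from -1.50 to 0.00022 and PCK2 from -0.81 to 0.66, with 0.42, 0.51 and 0.47 among its positive values. PCK2 after IL-1β was 0.018 after quantile normalization with and without a replicate block, 0.14 within scan 1 and, with the replicate block with 1 effect per treatment, 0.037, 0.083 and 0.00385 without 1 array and 0.11 without the slide of HK-2 replicate 2. For Empa PFKL ran from -0.92 to 0.25, with 0.09 between, and PCK2 from -1.33 to 0.28, with 0.21, 0.054 and 0.13 between. Causes were not tested. Signals of dim members depend on the floor, and those of LDHB and GAPDH are limited by saturation.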
